A study of Mus musculus with 22 samples.

Results

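The 9 genes described here carry the erythropoietin signal into the nucleus and switch it off again. They are the receptor Epor, the kinase Jak2, the transcription factors Stat5a and Stat5b, the inhibitors Cish, Socs1, Socs2 and Socs3, and the kinase Pim1. The genes were listed by name, and each was followed in a window of its gene body plus 20 kb on each side in the mm10 annotation (GENCODE M21). They are 9 of 21938 annotated protein-coding genes, and the rule itself uses no measured value. Peaks of H3K4me3 and H3K27ac, called separately in each ChIP-seq library, were followed for presence and length.

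Erythropoietin binds its receptor on erythroid progenitors, and JAK2, which sits on the inner tail of the receptor, then phosphorylates the receptor and STAT5. Phosphorylated STAT5 pairs up, enters the nucleus and binds DNA at the letters TTCNNNGAA, near genes such as Cish and Pim1. CIS (the Cish product) and the SOCS proteins bind the active receptor or kinase and limit the signal. H3K4me3 is found at the promoters of transcribed genes, and H3K27ac at working enhancers as well as promoters.

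The cells were G1ER (G1E-ER4), a mouse erythroid line without endogenous GATA1 that carries GATA1 fused to an estrogen receptor (GATA1-ER). Undifferentiated cells were taken at 0 h, and differentiating cells 2, 6, 12, and 24 h after β-estradiol, which activates the fusion protein. All groups, 0 h included, lacked Gata1, carried GATA1-ER and grew in serum with stem cell factor and erythropoietin, so the ligand of EPOR was in the medium throughout. There were 22 lists, with 2 replicates per time point for each histone mark and an unreplicated pair of lists, at 0 h and 24 h, for CTCF, which binds DNA where chromatin loops are anchored. The line is a single subclone, and the labels do not say whether replicates were separate cultures, so the p-values measure only the spread between these libraries.

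The lists held 12925 to 14452 peaks for H3K4me3 and 17247 to 18333 for H3K27ac. They held no read counts, so the depth is unknown, and a missing peak is not shown to be a missing mark. No H3K4me3 peak exceeded 9200 bp and no H3K27ac peak 8973 bp in any list. Of 9 erythroid marker genes, 8 had H3K4me3 within 2 kb of the start site in both lists at 0 h and at 24 h, Tal1 being the exception. Of 13 markers of B cells, T cells, granulocytes or macrophages, hepatocytes, neurons and muscle, only the hepatocyte gene Apoa2 did. An exact permutation test of 2 lists against 2 cannot go below p = 0.333, so lengths were tested with limma over all 10 lists of a mark and over all genes or regions, on log2(covered bp + 200).

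The 9 windows held H3K4me3 at every member's promoter in all 10 lists, and the covered length changed past the threshold for none of the 9. Covered length in the window at 24 h was below both 0 h lists for 4 members (Stat5b, Cish, Socs1 and Socs2) and above for 0, where 28.2% and 15.2% of all 13666 windows were so placed. No window passed the threshold of 0.05 in limma at 24 h against 0 h (0 of 9, against 1.11% of all windows) or in the F test over all time points (0 of 9, against 0.761%). At an unadjusted p below 0.05 the count was 1 of 9 by each test, which was Socs1, where 11.5% and 8.55% of all windows were. The median difference over the members was -0.10 on the log2 scale, and -0.026 over all windows tested.

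For H3K27ac, the covered length at 24 h lay above both 0 h lists for 3 members (Stat5a, Cish and Pim1) and below for 4 (Jak2, Stat5b, Socs1 and Socs3), where 31.8% and 18.1% of all 13925 windows were so placed. The limma test called 0 of 9 members at 24 h against 0 h (5.23% of all windows), although 5 had an unadjusted p below 0.05, as did 20.9% of all windows. These were Pim1 (log2 difference 1.53 ± 0.43 SE, adjusted p = 0.0991), Cish (0.77 ± 0.22, adjusted p = 0.109), Socs1 (-1.02 ± 0.30, adjusted p = 0.108), Socs3 (-1.54 ± 0.52, adjusted p = 0.153) and Stat5b (-0.30 ± 0.12, adjusted p = 0.209), all from limma with Benjamini-Hochberg adjustment. The F test called 1 of 9 (2.35% of all windows), the Stat5b window (adjusted p = 0.0431), and 3 had an unadjusted p below 0.05 (16.2% of all windows). The Stat5b window shares 31374 bp and the Stat5a promoter with the Stat5a window. Its covered length was 12657 and 14235 bp at 0 h and 7541 and 7941 bp at 12 h, where both lists lacked the Stat5a promoter peak. Its call ended under the replicate block, with 5 or 50 kb on each side, with higher-scoring peaks, and without any 1 of the 8 lists at 0, 2, 6 or 12 h.

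**Figure D1:**
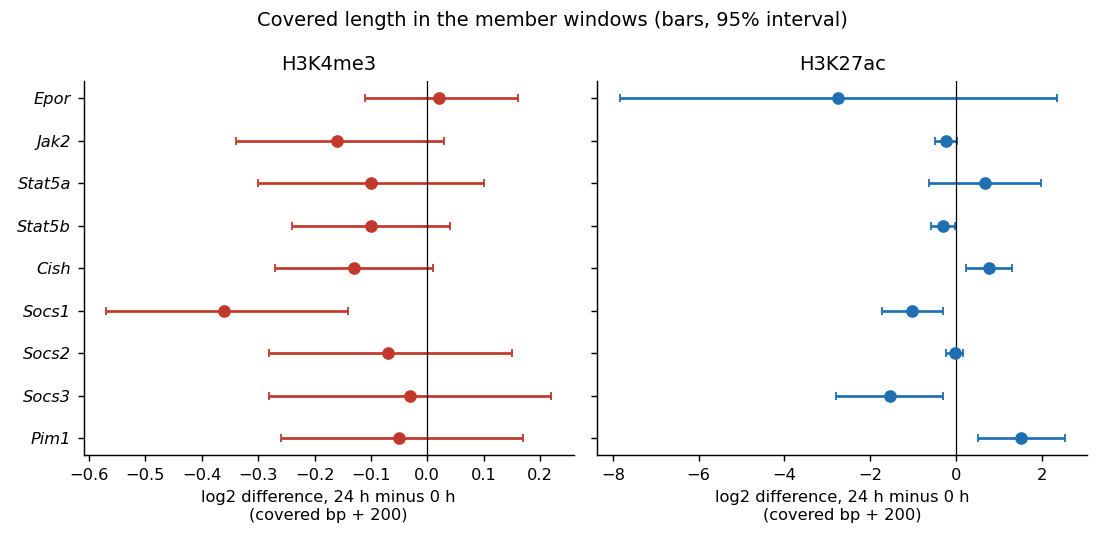
Difference in covered length between 24 h and 0 h in the windows of the 9 members, as log2(covered bp + 200), for H3K4me3 (left) and H3K27ac (right, a wider axis). Points are limma estimates from 10 lists and bars are 95% intervals. H3K4me3 differences run from -0.36 (Socs1) to 0.02 (Epor), and the widest H3K27ac interval is that of Epor, from -7.84 to 2.35.

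Merging the lists gave 24 H3K4me3 regions in the windows, of which 22 had a peak in at least 2 lists and were tested, and 27 H3K27ac regions, of which 24 were tested. For H3K4me3, 1 region passed at 24 h against 0 h (1.58% of all 14862 regions tested) and 0 in the F test (1.25%), where 5 and 4 had an unadjusted p below 0.05 (12.4% and 9.34% of all regions). For H3K27ac, 2 regions passed at 24 h against 0 h (6.32% of 21011) and 4 in the F test (5.61%), which included the 2, where 5 and 4 had an unadjusted p below 0.05 (21.2% and 17.2%). The region near Socs2, 1 of the 4, met the filter of 2 lists only through the time point at which it had peaks. Those near Cish and Pim1 met it only through later time points, with no peak at 0 h. Gained means a peak in both lists of a later time point where the 0 h lists had none, and lost means the reverse. Against 0 h, the numbers of H3K27ac regions gained were 1 (2 h), 2 (6 h), 2 (12 h) and 3 (24 h), and 1.56%, 2.31%, 2.69% and 3.43% of all 24299 regions were gained at these times. H3K27ac regions lost numbered 0, 0, 1 and 1, against 1.58%, 1.64%, 2.22% and 4.18%. No H3K4me3 region was gained at any time (0.400%, 0.480%, 0.295% and 0.456% of all 16244), and 0, 1, 1 and 1 were lost (1.48%, 2.02%, 2.87% and 3.88%). Regions that passed a test or were gained or lost lay in the windows of Cish, Pim1, Stat5a, Socs2, Epor and Socs3. The H3K27ac region over the Stat5a promoter also lay in the Stat5b window.

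**Figure D2:**
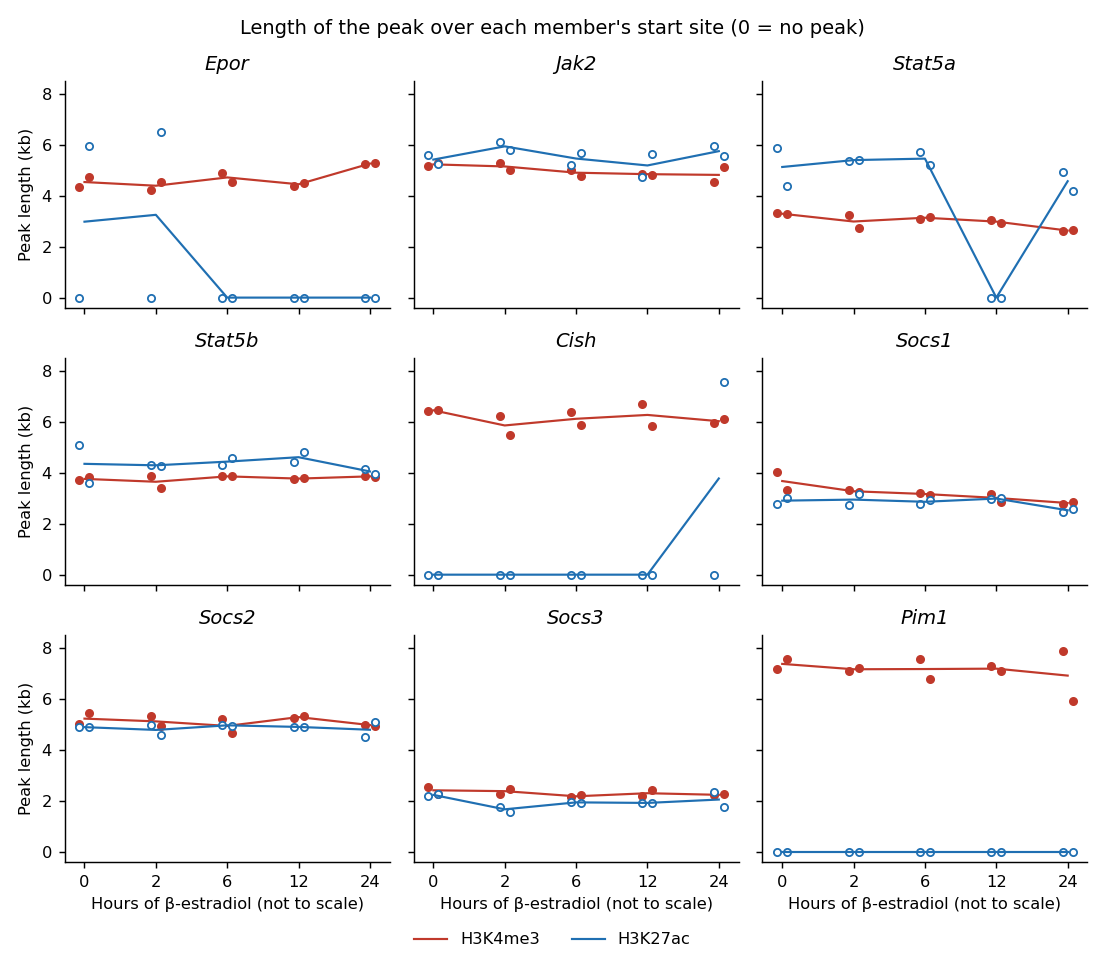
Length in kb of the peak over each member's start site (for H3K4me3 at Stat5a, 18 bp past it) by hours of β-estradiol, H3K4me3 in filled red points and H3K27ac in open blue points, 1 point per list, with lines through the means and 0 for no peak. H3K4me3 is present in all 10 lists for every member, whereas H3K27ac is present in 0 of 10 lists for Pim1, 1 for Cish, 2 for Epor and 8 for Stat5a.

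Epor (chr9:21958897-21963506, minus strand) encodes the receptor itself. Its promoter H3K4me3 peak ran from before the start site through most of this short gene (chr9:21959069-21964518 in all lists together). It measured 4357 and 4714 bp at 0 h, 4234 and 4548 bp after 2 h, 4907 and 4527 bp after 6 h, 4396 and 4500 bp after 12 h, and 5233 and 5285 bp at 24 h. Both 24 h lists were the longest of the 10, and the groups at 0 h and 24 h did not overlap. The log2 difference of 0.21 ± 0.06 (SE) did not pass the correction (limma adjusted p = 0.227), nor did the F test (adjusted p = 0.433). Its score lay between the 46.9th and 72.3rd percentile of its list, on both sides of the median. With only higher-scoring peaks the difference turned to -4.56 (adjusted p = 2.86e-07), because the peak fell below the score cutoff in both 24 h lists and in none of the other 8.

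H3K27ac at the Epor promoter had a peak in only 2 of 10 lists, of 5959 bp in replicate 2 at 0 h and 6498 bp in replicate 2 at 2 h. The promoter of the neighbour Swsap1, whose product acts in DNA repair and had H3K27ac centred 7.1 kb downstream of the Epor start site in the same 2 lists (2840 and 3392 bp). Replicates of the same time point thus disagreed, and neither region passed the test (adjusted p = 0.559 and 0.563, limma). A small H3K4me3 region 15.8 kb downstream, over an exon and intron of Plppr2 (chr9:21947443-21948069), was lost. It had 529 and 530 bp at 0 h, 627 bp in 1 list at 2 h, and no peak in the other 7 lists, and its difference of -1.87 ± 0.66 did not pass (limma adjusted p = 0.298).

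The 250 bases before the RefSeq start site of Epor (GRCm38.p6, minus strand, chr9:21963577-21963826) are shown because GATA1, the factor switched on in these cells, binds GATA letters. The letters searched on both strands were AGATA or TGATA followed by A or G, and capitals mark the only match, which starts 54 bases before the start site.
Epor promoter: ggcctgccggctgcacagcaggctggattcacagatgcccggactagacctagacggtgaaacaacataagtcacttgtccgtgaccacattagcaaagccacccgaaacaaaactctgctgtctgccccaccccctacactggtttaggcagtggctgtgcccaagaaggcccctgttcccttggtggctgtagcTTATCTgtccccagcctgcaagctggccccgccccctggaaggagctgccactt
Such a match is present in this stretch of 26.5% of 32851 RefSeq promoters, and among the 8 members with an entry, Socs2 having none, Epor was the only one that held it. A match is a description of letters, not a bound site.

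Across the 20 values of both marks, the windows of Gm13290 and Erp27 were among the 3 most like that of Epor. Their root mean square differences were 1.19 and 1.30 on the log2 scale, against a median of 3.15 over the 14626 genes compared. Both were picked for small differences, so their place below the median was set by that choice. Erp27 encodes a protein of the endoplasmic reticulum. Their H3K27ac coverage ranged from 0 bp to a highest value of 1523 and 6083 bp, and each had lists without a peak.

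Jak2 (chr19:29251828-29313080, plus strand) encodes the kinase that EPOR needs to signal. Its promoter carried both marks in all 10 lists. H3K4me3 measured 4518 to 5298 bp (median 5008 bp), and H3K27ac 4738 to 6089 bp (median 5619 bp). Neither length differed detectably at 24 h (log2 differences of -0.12 ± 0.07 and 0.08 ± 0.10, limma adjusted p = 0.594 and 0.683). An intergenic H3K27ac region 14.0 kb upstream, chosen after its values were seen, shortened from 4457 and 4180 bp at 0 h to 2546 and 2420 bp at 24 h. The groups did not overlap, and the difference of -0.75 ± 0.19 missed the threshold (limma adjusted p = 0.0805).

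Stat5a (chr11:100859351-100885169, plus strand) and Stat5b (chr11:100780731-100850724, minus strand) lie head to head and encode the closely related factors that JAK2 activates. Stat5b kept both marks at its promoter in all lists, with 3412 to 3881 bp of H3K4me3 and 3604 to 5096 bp of H3K27ac, and neither differed detectably (limma adjusted p = 0.891 and 0.834). At the Stat5a promoter, H3K4me3 measured 3321 and 3262 bp at 0 h and 2625 and 2636 bp at 24 h, below all 8 earlier values. That difference of -0.30 ± 0.07 did not pass (limma adjusted p = 0.122). It passed when either 2 h list was left out and with only the lists at 0 h and 24 h (adjusted p from 0.031 to 0.0445).

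The H3K27ac region over the Stat5a promoter (chr11:100858300-100864812) had a peak in 8 of 10 lists. It measured 5857 and 4396 bp at 0 h, 5376 and 5418 bp after 2 h, 5706 and 5204 bp after 6 h, and 4941 and 4196 bp at 24 h. Both lists at 12 h had no peak there, so it was lost at 12 h and present again at 24 h. The F test called it (adjusted p = 5.15e-05), and 24 h did not differ detectably from 0 h (-0.15 ± 0.14, limma adjusted p = 0.598). Both 12 h lists are at 0 and add no spread, so the adjusted p of the F test is too low. A gap at 12 h alone, with a peak in the other 8 lists, was seen in 14 of 24299 H3K27ac regions (0.0576%). Of the 14, 8 averaged over 4 kb where present, against 3242 of all 24299 regions. Gaps at 0, 2, 6 or 24 h alone numbered 89, 18, 3 and 180, of which 9, 4, 1 and 11 averaged over 4 kb. The H3K4me3 peak of the same promoter was there in both 12 h lists, with 3055 and 2910 bp. With only the higher-scoring peaks the F test no longer called the region (adjusted p = 0.345).

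A long H3K27ac region, most of it in Stat3 and reaching into the end of Stat5a (chr11:100884545-100894735), was counted as gained at 24 h. STAT3 is a related factor that serves other cytokines. The region holds an annotated Stat3 start site, and its peak in replicate 1 at 24 h lay wholly in Stat3. It had no peak in the lists at 0 h and 2 h, 10100 bp in 1 list at 6 h, 10023 bp in 1 list at 12 h, and 4745 and 9188 bp at 24 h. Replicates disagreed at 6 h and 12 h, and the difference did not pass (5.09 ± 2.26, limma adjusted p = 0.269).

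Cish (chr9:107296026-107302784, plus strand) encodes CIS, a SOCS family inhibitor that is a classical STAT5 target. It held the region with the smallest adjusted p at 24 h against 0 h among the members. This H3K27ac region lies between genes 12.6 kb downstream of the start site (chr9:107306903-107310311) and holds no annotated start site or CTCF peak. It had no peak at 0 h, 2714 and 3159 bp after 2 h, no peak at 6 h, 3391 and 3269 bp after 12 h, and 2833 and 2365 bp at 24 h. Replicates agreed at all 5 time points, and the region was gained at 2, 12 and 24 h but absent from both 6 h lists. The limma test called it at 24 h (3.80 ± 0.21, adjusted p = 0.00027) and over all time points (F test, adjusted p = 0.000282). The region met the filter of 2 lists only through the lists at 2, 12 and 24 h. The same order of presence and absence in every list was seen in 6 of 24299 H3K27ac regions (0.0247%).

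The size of that difference depends on the pseudocount, since 0 h has no peak, and it ran from 1.84 with 1000 bp to 5.72 with 50 bp. Time points at which both lists are at 0 add no spread, so the SE is too small there and the adjusted p too low. The next H3K27ac region, centred 17.1 kb downstream (chr9:107310794-107315389), had a peak in every list, with 3803 and 4596 bp at 0 h and 3374 and 2941 bp at 24 h (-0.39 ± 0.14, limma adjusted p = 0.187). The call at 24 h was lost when a slope over the time points replaced the contrast (3.11, adjusted p = 0.262). With the regions merged within 500 bp they became 1 region, which was called over all time points (adjusted p = 0.0318) but not at 24 h (0.44, adjusted p = 0.13).

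**Figure D3:**
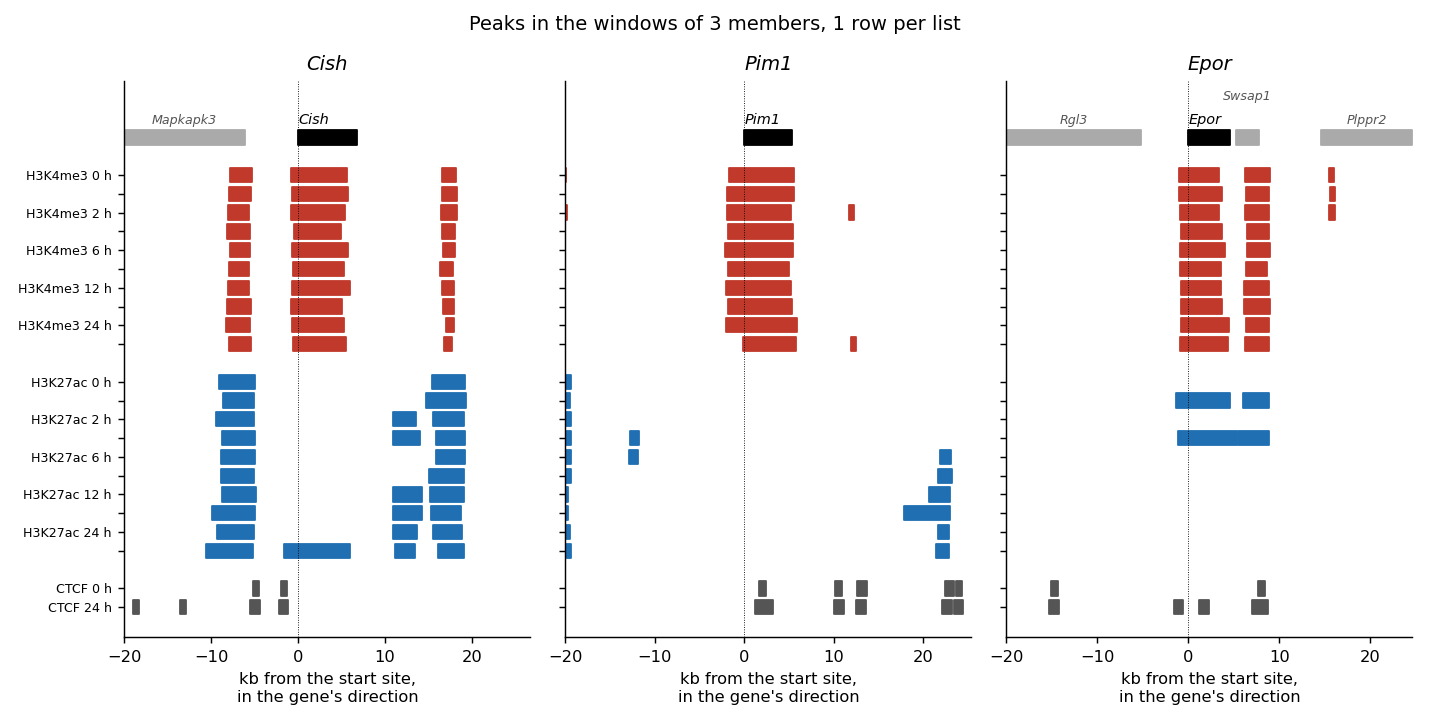
Peaks of each list in the windows of Cish, Pim1 and Epor, by kb from the start site in the direction of the gene, with H3K4me3 in red, H3K27ac in blue, CTCF in grey and gene bodies on top (members black, neighbours grey). Each mark and time point has 2 rows, 1 per replicate, and CTCF has 1. The H3K27ac peaks 12.6 kb downstream of Cish are absent at 0 h and 6 h. Those of the region centred 20.5 kb downstream of Pim1 appear from 6 h.

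At 17.4 kb downstream of the Cish start site, inside the H3K27ac region present in every list, lay the single H3K4me3 region that passed (chr9:107312414-107314344, between genes). It measured 1526 and 1719 bp at 0 h, 1835 and 1453 bp after 2 h, 1428 and 1432 bp after 6 h, 1361 and 1249 bp after 12 h, and 866 and 915 bp at 24 h. Both 24 h values were below all the others, a log2 difference of -0.74 ± 0.13 (limma adjusted p = 0.0402). The call was close to the threshold and was lost when any 1 of the 8 lists at 0, 6, 12 or 24 h was left out (adjusted p from 0.0586 to 0.231).

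Over the Cish start site itself, H3K4me3 formed a long peak of 5486 to 6704 bp (median 6160 bp), with 6443 and 6458 bp at 0 h and 5956 and 6092 bp at 24 h (-0.10 ± 0.09, limma adjusted p = 0.747). H3K27ac had a peak there in only 1 of 10 lists, of 7551 bp in replicate 2 at 24 h. That list raises the Cish window, whose difference was 1.16 and passed when replicate 1 at 24 h was left out (adjusted p = 0.00512).

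The letters around Cish are shown because STAT5 binds TTCNNNGAA, which reads alike on both strands and is in capitals, as are the GATA letters described for Epor. The first run is 30 bases at the RefSeq start site (GRCm38.p6, plus strand, chr9:107296654-107296683), downstream of the gene start used for distances. The second is 300 bases of the region 12.6 kb downstream (GRCm38, plus strand, chr9:107308689-107308988), taken where matches were densest within the 2365 bp under the peak of all 6 lists that had one.
Cish start site: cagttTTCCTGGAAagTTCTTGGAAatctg
Cish 12.6 kb downstream: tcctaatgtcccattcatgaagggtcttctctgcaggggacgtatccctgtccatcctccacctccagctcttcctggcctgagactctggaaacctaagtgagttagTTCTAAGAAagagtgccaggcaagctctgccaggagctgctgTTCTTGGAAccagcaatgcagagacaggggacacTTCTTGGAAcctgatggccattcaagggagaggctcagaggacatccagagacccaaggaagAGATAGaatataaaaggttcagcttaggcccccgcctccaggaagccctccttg
The start site held 2 matches, and 0.457% of the RefSeq promoters held at least 2 over the 300 bases of the table. The whole downstream region held 4, of which 3 lie in the stretch shown, and 2.74% of 2411 H3K27ac regions within 10% of its length held at least 4. It also held 4 GATA hexamers, and 81.5% of those regions held at least 4.

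Socs1 (chr16:10782240-10785536, minus strand) encodes an inhibitor that binds JAK kinases directly. Its promoter carried both marks in all 10 lists. H3K4me3 measured 4044 and 3305 bp at 0 h, 3320 and 3228 bp after 2 h, 3192 and 3140 bp after 6 h, 3165 and 2858 bp after 12 h, and 2789 and 2836 bp at 24 h. Both 24 h values were the lowest of the 10, and the difference of -0.36 ± 0.09 did not pass (limma adjusted p = 0.134). It passed only without replicate 2 at 0 h (adjusted p = 0.0457). Promoter H3K27ac was 2790 and 3019 bp at 0 h and 2477 and 2577 bp at 24 h (-0.19 ± 0.08, adjusted p = 0.242).

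The drop in the Socs1 window came mainly from an intergenic H3K27ac region 12.7 kb downstream (chr16:10770422-10775191), named after its values were seen. It had 3739 and 3562 bp at 0 h, 2362 and 2690 bp after 2 h, 2119 and 2213 bp after 6 h, none and 2813 bp after 12 h, and 1300 bp and none at 24 h. Every later value was below both 0 h values, but replicates disagreed at 12 h and 24 h, and the difference of -2.81 ± 1.36 did not pass (limma adjusted p = 0.316). The Socs1 window itself passed when either 12 h list was left out (adjusted p = 0.036 and 0.0361).

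Socs2 (chr10:95385362-95417180, minus strand) encodes an inhibitor best known for damping growth hormone signalling. Its promoter showed the least spread of H3K27ac length among the members with a peak in all lists, 4501 to 5074 bp, beside 4678 to 5451 bp of H3K4me3. Neither changed detectably at 24 h (limma adjusted p = 0.89 and 0.768). An intronic region 20.2 kb downstream (chr10:95396268-95397066) had H3K27ac of 574 and 799 bp at 6 h and no peak in the other 8 lists. It was gained at 6 h only. The F test gave an adjusted p of 0.0139, but the region met the filter of 2 lists only through the 6 h lists and the other time points at 0 add no spread, so that value is no support, and the filter of 5 lists removed it. H3K4me3 had a peak of 516 bp there in 1 list, replicate 1 at 6 h. The adjusted p rose to between 0.0584 and 0.0721 when any 1 list at 0 h or 24 h was left out. Presence in both 6 h lists alone was seen in 40 of 24299 H3K27ac regions (0.165%).

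Socs3 (chr11:117966079-117970047, minus strand) encodes an inhibitor that binds both receptors and JAK kinases. It had the shortest promoter peaks of the members, 2129 to 2541 bp of H3K4me3 and 1578 to 2325 bp of H3K27ac, in all 10 lists and without a detectable difference at 24 h (limma adjusted p = 0.714 and 0.624). The fall in its H3K27ac window lay at the promoter of its neighbour Pgs1, an enzyme of cardiolipin synthesis, about 20 kb upstream (chr11:117986158-117992211). There the peak measured 5799 and 4771 bp at 0 h, none and 5962 bp after 2 h, 5192 and 4884 bp after 6 h, and none and 4999 bp after 12 h. Both 24 h lists lacked it. It was counted as lost at 24 h, but the difference did not pass (-4.77 ± 1.90, limma adjusted p = 0.218), and H3K4me3 over the same start site was 4742 and 4500 bp at 24 h.

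The 250 bases before the RefSeq start site of Socs3 (GRCm38.p6, minus strand, chr11:117969367-117969616) are shown because they held a TTCNNNGAA, in capitals and starting 154 bases before the start site. It was the only match in these 250 upstream bases among the 8 members with a RefSeq entry.
Socs3 promoter: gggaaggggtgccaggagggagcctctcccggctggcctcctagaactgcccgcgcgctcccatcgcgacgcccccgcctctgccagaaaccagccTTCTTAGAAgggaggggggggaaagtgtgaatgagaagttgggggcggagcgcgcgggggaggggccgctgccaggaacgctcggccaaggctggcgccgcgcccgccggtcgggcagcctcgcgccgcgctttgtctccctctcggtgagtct
This stretch held the letters in 7.02% of all RefSeq promoters.

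Pim1 (chr17:29490753-29496112, plus strand) encodes a survival kinase that cytokines induce through STAT5. H3K27ac appeared between genes in a region centred 20.5 kb downstream of its start site (chr17:29508544-29513912). The part under every peak was chr17:29512561-29513629. No list at 0 h or 2 h had a peak, and the length was 1300 and 1567 bp after 6 h, 2433 and 5162 bp after 12 h, and 1264 and 1424 bp at 24 h. Both replicates agreed on presence at every time point, and the highest values were those at 12 h. The limma test called it at 24 h (2.95 ± 0.38, adjusted p = 0.00533) and over all time points (F test, adjusted p = 0.0032), and it passed under all 20 alternatives in which the region was present (highest adjusted p = 0.0451). The size again depends on the pseudocount, from 1.23 with 1000 bp to 4.80 with 50 bp. The region met the filter of 2 lists only through the lists from 6 h on. All lists at 0 h and 2 h are at 0 and add no spread. The SE is thus too small and the adjusted p too low, under the alternatives as well. With only higher-scoring peaks the region was not among those called. Presence at 6, 12 and 24 h with none at 0 h and 2 h was seen in 38 of 24299 regions (0.156%). A CTCF peak lay in the region at 0 h and at 24 h.

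Within the 1069 bp that all 6 of these peaks shared, 300 bases are shown (GRCm38, plus strand, chr17:29512858-29513157), where GATA hexamers, in capitals, were densest.
Pim1 20.5 kb downstream: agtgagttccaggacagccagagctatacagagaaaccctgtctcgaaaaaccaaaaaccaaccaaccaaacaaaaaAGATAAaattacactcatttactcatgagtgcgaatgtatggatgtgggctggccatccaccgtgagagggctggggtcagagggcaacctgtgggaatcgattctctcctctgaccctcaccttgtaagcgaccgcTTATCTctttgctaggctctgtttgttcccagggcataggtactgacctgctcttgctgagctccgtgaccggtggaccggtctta
The whole region held 8 GATA hexamers, and 73.9% of 1504 H3K27ac regions within 10% of its length held at least 8. It held no TTCNNNGAA, and neither did 19.9% of them.

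**Figure D4:**
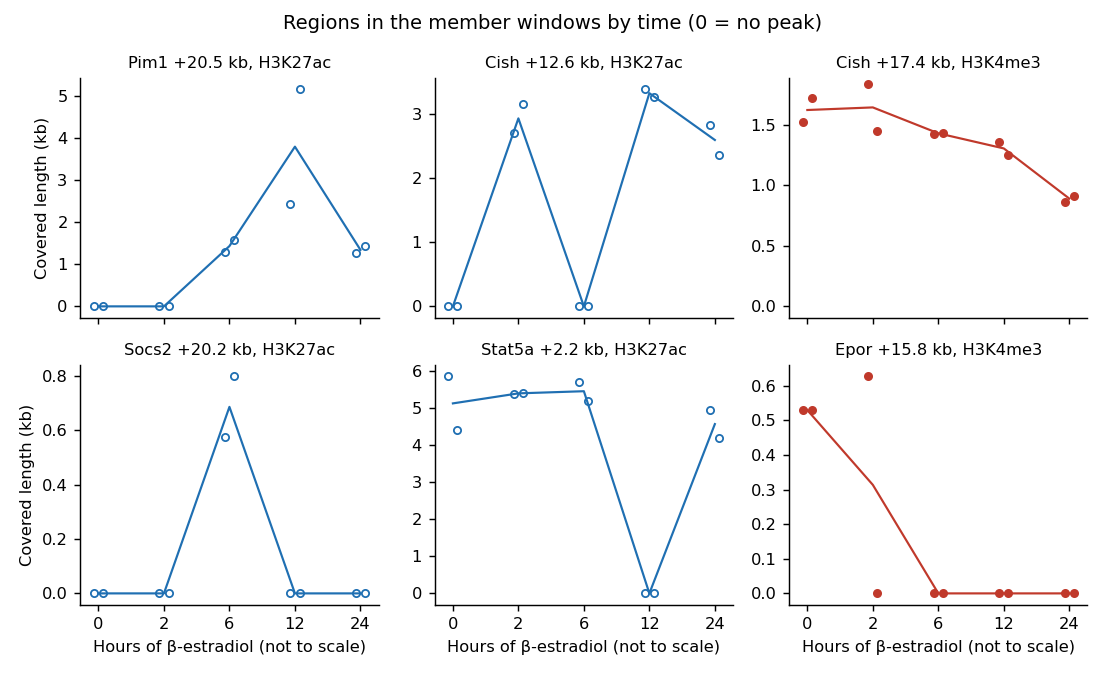
Covered length in kb by hours of β-estradiol in 6 regions of the members' windows, 1 point per list, lines through the means, and 0 for no peak (open blue points H3K27ac, filled red points H3K4me3, each panel with its own axis). The H3K27ac regions near Pim1 and Cish start at 0, the Socs2 region is seen only at 6 h, the Stat5a promoter region is missing only at 12 h, and both H3K4me3 regions are shortest or absent at 24 h.

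The Pim1 promoter itself had the longest H3K4me3 peak of the members, 5932 to 7894 bp, with 7185 and 7560 bp at 0 h and 7894 and 5932 bp at 24 h. The groups overlapped (-0.10 ± 0.13, limma adjusted p = 0.816). No H3K27ac list had a peak over that start site.

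In order of mean promoter H3K4me3 length over the 10 lists, Pim1 (7161 ± 535 bp, SD) came before Cish (6144 ± 367 bp), then Socs2 (5107 ± 236 bp), Jak2 (4988 ± 245 bp) and Epor (4670 ± 362 bp). Stat5b (3779 ± 142 bp), Socs1 (3188 ± 359 bp), Stat5a (3005 ± 263 bp) and Socs3 (2299 ± 136 bp) followed. The ranges of neighbours in this order overlapped except between Cish and Socs2, Epor and Stat5b, and Stat5a and Socs3. The 3 members with H3K27ac peaks over the start site in at most 2 lists were thus those ranked 1, 2 and 5.

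H3K27ac peaks were missing more often at promoters with long H3K4me3 peaks than at those of middle length over the whole genome, a comparison added after these values were seen. Among promoters with H3K4me3 in all 10 lists, H3K27ac was present in all 10 at 92.8% of the 6107 with a mean H3K4me3 length of 2000 to 4000 bp, the class of Stat5b, Socs1 and Socs3. Stat5a was not counted, since its H3K4me3 region starts 18 bp past the gene start used here. The share was 78.1% of 1712 below 2000 bp, where 5.96% had H3K27ac in no list. The share was 78.8% of 898 at 4000 to 5000 bp (Epor and Jak2) and 59.6% of 297 at 5000 to 6000 bp (Socs2). It was 30.1% of 123 at 6000 to 7000 bp (Cish) and 18.5% of 54 at 7000 bp or more (Pim1), where 37.0% had H3K27ac in no list. Likewise 89.5% of 7618 H3K27ac regions with a mean length of 2000 to 4000 bp had a peak in all 10 lists, against 39.6% of 10270 below 2000 bp and 47.9% of 917 of 6000 bp or more. The part of the peak caller in this was not tested, so the absence of H3K27ac peaks at the Pim1, Cish and Epor start sites does not show that the mark was absent.

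CTCF had 25 peaks in the windows at 0 h and 34 at 24 h, of which 23 overlapped a 0 h peak, while the whole lists held 33193 and 41473. The counts at 0 h and 24 h were 4 and 9 for Stat5b, 2 and 4 for Epor and Cish, 3 and 5 for Jak2, 4 and 2 for Socs1, 5 and 5 for Pim1, and 2 and 2 for Stat5a, Socs2 and Socs3. With 1 list per time point these are descriptions, and the list at 24 h was 1.25 times as long.

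The wider pathway was followed in 57 other genes of cytokine receptors, kinases, STATs, inhibitors, adaptors and targets, of which 54 were tested for H3K4me3 and 52 for H3K27ac. For H3K4me3 the window of 1 gene was longer at 24 h and that of 0 shorter, and for H3K27ac 2 were longer and 0 shorter, where 1.11% and 5.23% of all windows passed in either direction, with medians of -0.04 and 0.02 on the log2 scale against -0.03 and 0.05 over all genes tested. Il9r, a cytokine receptor, had 4753 and 4304 bp of H3K4me3 at 0 h and 7640 and 7285 bp at 24 h (0.70 ± 0.08, limma adjusted p = 0.00915). Erfe, the erythroid hormone erythroferrone, which erythropoietin induces, had 1095 and 1239 bp of H3K27ac at 0 h, 3820 and 2557 bp after 2 h, 4454 and 5685 bp after 6 h, 6286 and 5829 bp after 12 h, and 8293 and 7048 bp at 24 h (2.52 ± 0.20, adjusted p = 0.00225). Tyk2, a JAK family kinase, had 7909 and 7229 bp of H3K27ac at 0 h and 10656 and 10495 bp at 24 h (0.47 ± 0.09, adjusted p = 0.0286). In all 3 windows both 24 h lists lay above both 0 h lists. Of all windows, 15.2% for H3K4me3 and 31.8% for H3K27ac were so placed. The 3 genes were named for passing at 24 h against 0 h, so this placement adds no support.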

How the data were processed

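The authors aligned the histone ChIP-seq reads to mm10 with Bowtie2 at default settings and called peaks per library with MACS without its model step. The MACS version, control and threshold are not given in the sources used here. Each deposited line gives a peak's position and the authors' score, which resembles minus 10 times log10 of a p-value (lowest 50.0). Scores served only for the alternatives. Lists hold no counts, so depth and its precision are unknown.

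The members, lists and tests were chosen with earlier results of these data known. Covered bp per gene window (gene body plus 20 kb, GENCODE M21) and per region (union of 10 lists, merged where they touch) was compared by limma (functions lmFit and eBayes, trended prior variance) after taking log2(covered bp + 200). Each time point had its own mean, and a peak was required in 2 or more lists. Benjamini-Hochberg adjustment ran over all of them. Lengths of 0 beside full peaks break limma's assumption of normal noise.

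Named regions were those holding a member's start site, passing either test, or gained or lost at any time, and pathway genes were named when past the threshold at 24 h against 0 h, at most 4 per mark and direction by size. For Epor, the 3 most similar windows over 20 values were taken, of which 1 is not reported here. Alternatives were higher-scoring peaks, equal numbers of top-scoring peaks, pseudocounts of 50 and 1000 bp, filters of 1 and 5 lists, scaling by median peak length, only the lists at 0 h and 24 h, a replicate block, a slope over time points, windows of 5 and 50 kb, merging within 500 bp, at least 50% of a region inside the window, a larger overlap for shared CTCF peaks, and leaving out each list. Same-numbered replicates were checked by the correlation of their deviations. Python 3.11.15, pandas 2.3.3, R 4.3.3 and limma 3.58.1 were used.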

Additional observations from a re-analysis of the deposited data

How the results depend on the processing

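The lists hold no read counts, so how depth bears on each peak was not tested. The main counts were 0 H3K4me3 and 0 H3K27ac windows at 24 h against 0 h, 0 and 1 over all time points, 1 and 2 regions at 24 h, 0 and 4 regions over all time points, and 1 and 4 regions gained or lost. With only higher-scoring peaks, the Epor H3K4me3 difference reversed to -4.56 in the window (adjusted p = 1.59e-05) and in the promoter region (adjusted p = 2.86e-07), because its promoter peak fell below the score cutoff in both lists at 24 h and in none of the other 8. That filter gave 1 H3K4me3 window at 24 h and 1 over all time points, 1 H3K4me3 region over all time points, 0 H3K27ac windows over all time points, 1 H3K27ac region at 24 h (Jak2, 14.0 kb upstream), 1 over all time points, and 2 regions gained or lost for each mark. It left 11 CTCF peaks at 0 h, 20 at 24 h and 11 shared. With the 4 lists at 0 h and 24 h alone, 2 H3K4me3 regions, 2 H3K27ac windows (Socs3 and Pim1) and 5 H3K27ac regions passed. The slope gave 0 H3K4me3 regions and 1 H3K27ac window (Socs1), and it lost the Cish H3K27ac region 12.6 kb downstream (3.11, adjusted p = 0.262) while calling the one 14.0 kb upstream of Jak2. Equal numbers of peaks left 0 H3K4me3 regions gained or lost, merging within 500 bp left 1 H3K27ac region at 24 h, and windows of 5 or 50 kb left 0 H3K27ac windows over all time points. The causes were not tested.

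Leaving out 1 list gave 0 to 2 H3K4me3 regions at 24 h, 0 to 1 over all time points, and 1 to 3 gained or lost. For H3K27ac it gave 0 to 1 windows at 24 h, 0 to 2 over all time points, 2 to 3 regions at 24 h, 3 to 4 over all time points, and 4 to 8 gained or lost. The Stat5b H3K27ac call was lost without any 1 list at 0, 2, 6 or 12 h. Same-numbered replicates did not deviate together over all windows or regions (0 of 10 correlations over 0.1 for either mark, from -0.13 to 0.06 for H3K4me3 windows, the widest range). Whether they did so at particular regions, such as long H3K27ac regions, was not tested. With the replicate block, 0 H3K4me3 regions passed at 24 h and 0 H3K27ac windows over all time points, and no other count among the members changed by over 1.5 times. Of 1106 values recomputed, 1002 kept their direction and their side of the threshold or, for counts, stayed within 1.5 times.

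Over all features, the calls at 24 h moved by over 1.5 times under several alternatives, for example from 235 to 734 H3K4me3 regions and from 1327 to 2339 H3K27ac regions with only the lists at 0 h and 24 h.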
